A study of Mus musculus with 2 samples.

Results

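The tumour necrosis factor (TNF) superfamily pairs membrane or soluble ligands with cell-surface receptors. This account covers its genes in single cells of the mouse thymic medulla. Members were taken by gene symbol alone: every row whose symbol is Tnfsf or Tnfrsf with a number, plus Cd40, Cd70, Cd27, Ltbr, Lta, Ltb, Tnf, Fas and Fasl. No measured value chose them. The rule took 41 of the 31053 rows of the matrices, which are 24 receptors, 16 ligands and 1 antisense RNA, Tnfsf13os. It leaves out relatives with other symbols, such as Cd40lg, the CD40 ligand.

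The study compared medullary thymic epithelial cells (mTECs) of mice with floxed alleles of Ikzf1, which encodes the transcription factor Ikaros. Cells sorted as EPCAM-positive and Ly51-negative were profiled in 2 libraries of 3' single-cell RNA sequencing, 1 per genotype. The genotype label reads Foxn1-Cre(+) Ikaros+/fl for the library labelled +/fl and Foxn1-Cre(+) Ikarosfl/fl for the library labelled fl/fl. Both genotypes carry the Foxn1-Cre driver, which acts in thymic epithelium and not in blood-derived cells, so no library without Cre enters. The labels give neither the age, sex or number of mice nor the exons removed.

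The matrices' own names go against these labels: the one labelled +/fl is called a knockout there, and the one labelled fl/fl a control. Each direction below therefore holds between libraries as labelled. Ikzf1 itself had 64.5 CPM (molecules of a gene per 1000000 molecules counted) over all kept cells labelled +/fl and 37.7 CPM labelled fl/fl. That sum mixes cell classes, described below, whose shares differ between libraries. Ikzf1 had 111 and 49.8 CPM in Aire-stage mTECs and 56.6 and 18.2 CPM in Tuft cells. Cycling cells had 64.6 and 62.4 CPM of it, and Immature mTECs 16.0 and 13.1 CPM. A 3' count need not cover the deleted exons, so these differences do not settle the names. Sex differed as well: Xist had 1317 CPM labelled +/fl against 0.902 CPM labelled fl/fl, and Ddx3y had 0 and 64.5 CPM. Genotype, sex, mouse and library preparation cannot be told apart, and no difference between libraries has a replicate check. Kept cells numbered 4891 labelled +/fl and 7669 labelled fl/fl, with medians of 10731 and 8187 molecules (UMIs). Of their barcodes, 10 occurred in both libraries. All intervals are at 95% and cover counting error only.

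Members of the family signal through adaptors called TRAFs, through death domains, or through both, and many lead to NF-kB. In the medulla, RANK, CD40 and the lymphotoxin beta receptor on epithelial cells receive ligands made by thymocytes and other lymphoid cells. These signals drive the growth of mTECs and their maturation to the stage that expresses Aire. Osteoprotegerin (OPG) is a soluble decoy that binds RANK ligand, and it restrains the same axis. Other members are known from lymphocytes, as costimulatory receptors, or as death receptors such as Fas.

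Members lie in groups in the genome. In the GENCODE M21 annotation of GRCm38, chromosome 4 holds 9 members and chromosome 17 holds 8. Lta, Tnf and Ltb are neighbours on chromosome 17, between 35194439 and 35205351. Tnfsf9, Cd70 and Tnfsf14 are a second group on that chromosome, between 57105325 and 57194177. Tnfrsf8 (145267137 to 145315164, minus strand) and Tnfrsf1b (145213463 to 145246870, minus strand) are neighbours on chromosome 4.

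Promoter sequence was available for 31 of the 41 members, as RefSeq windows of GRCm38.p6 that run from 250 bases before to 50 bases after the start of a gene. Shown first are the 250 bases upstream of Fas and of Tnfrsf8, because each class in which they were compared had more Fas and less Tnfrsf8 in the library labelled fl/fl. Both are printed 5′ to 3′ on the strand of the gene, Fas at chr19:34290409-34290658 on the plus strand and Tnfrsf8 at chr4:145315165-145315414 on the minus strand. Capitals mark TGGGAA, the core that Ikaros is known to bind, in Fas, and a match to the kappaB consensus of NF-kB in Tnfrsf8.
Fas: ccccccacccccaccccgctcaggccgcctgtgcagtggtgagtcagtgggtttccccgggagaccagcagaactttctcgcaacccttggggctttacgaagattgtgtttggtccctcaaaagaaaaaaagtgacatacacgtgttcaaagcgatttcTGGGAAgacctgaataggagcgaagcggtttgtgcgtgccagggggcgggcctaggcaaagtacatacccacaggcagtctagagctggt
Tnfrsf8: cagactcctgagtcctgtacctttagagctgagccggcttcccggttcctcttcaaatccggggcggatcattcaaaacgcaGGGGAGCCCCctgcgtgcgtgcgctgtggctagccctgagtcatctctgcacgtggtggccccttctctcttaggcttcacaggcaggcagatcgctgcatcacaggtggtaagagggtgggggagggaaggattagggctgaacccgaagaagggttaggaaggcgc

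Each motif was searched on both strands of the 300-base windows. TGGGAA was in the windows of 6 of the 31 members (Fas, Lta, Tnfrsf14, Tnfrsf23, Tnfrsf9 and Tnfsf15), or 17.1% of their 35 windows, against 25.6% of all 32851 windows in the table. The kappaB consensus was in 3 of the 31 members (Ltb, Tnfrsf8 and Tnfrsf9), or 8.57% of member windows against 4.51% of all windows. A match is a description of letters, not evidence of binding. The kappaB matches of Ltb and Tnfrsf9 are shown in 30 bases each, since 4 of 5 classes had more Ltb in the library labelled fl/fl, and the log2 ratio of Tnfrsf9 was above 0 in the 3 where it could be compared. Ltb is at chr17:35194410-35194439 and Tnfrsf9 at chr4:150927946-150927975, both on the plus strand, with the match in capitals. Tnfrsf9 has 3 kappaB matches that overlap each other, of which the first is marked, and a TGGGAA match on the other strand that overlaps them. All lie in the window with its upstream part at chr4:150927749-150927998. Another Tnfrsf9 window, with its upstream part at chr4:150919905-150920154, holds no match of either motif.
Ltb: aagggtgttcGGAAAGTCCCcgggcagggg
Tnfrsf9: cagagcagctGGGGATTTCCcaggaggccc

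Cells were placed in classes by clustering without the members, and classes were named by resemblance to marker lists. Class names therefore carry no information from the family itself. Classes reaching 50 cells in each library were Aire-stage mTEC (919 cells labelled +/fl, 2684 labelled fl/fl), Immature mTEC (974 and 1543), Cycling (147 and 198), Tuft (1866 and 823), Microfold (75 and 555), Keratinocyte (70 and 512), Secretory (56 and 323), Myeloid and dendritic (355 and 324) and T-lineage (94 and 137). The labelled cell type, mTEC, held for most clusters but not for all, since the last 2 classes are leukocytes. Both still carried epithelial RNA: Epcam was 376 and 270 CPM in Myeloid and dendritic cells and 294 and 472 CPM in T-lineage cells, against 941 and 960 CPM in Aire-stage mTECs.

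**Figure D1:**
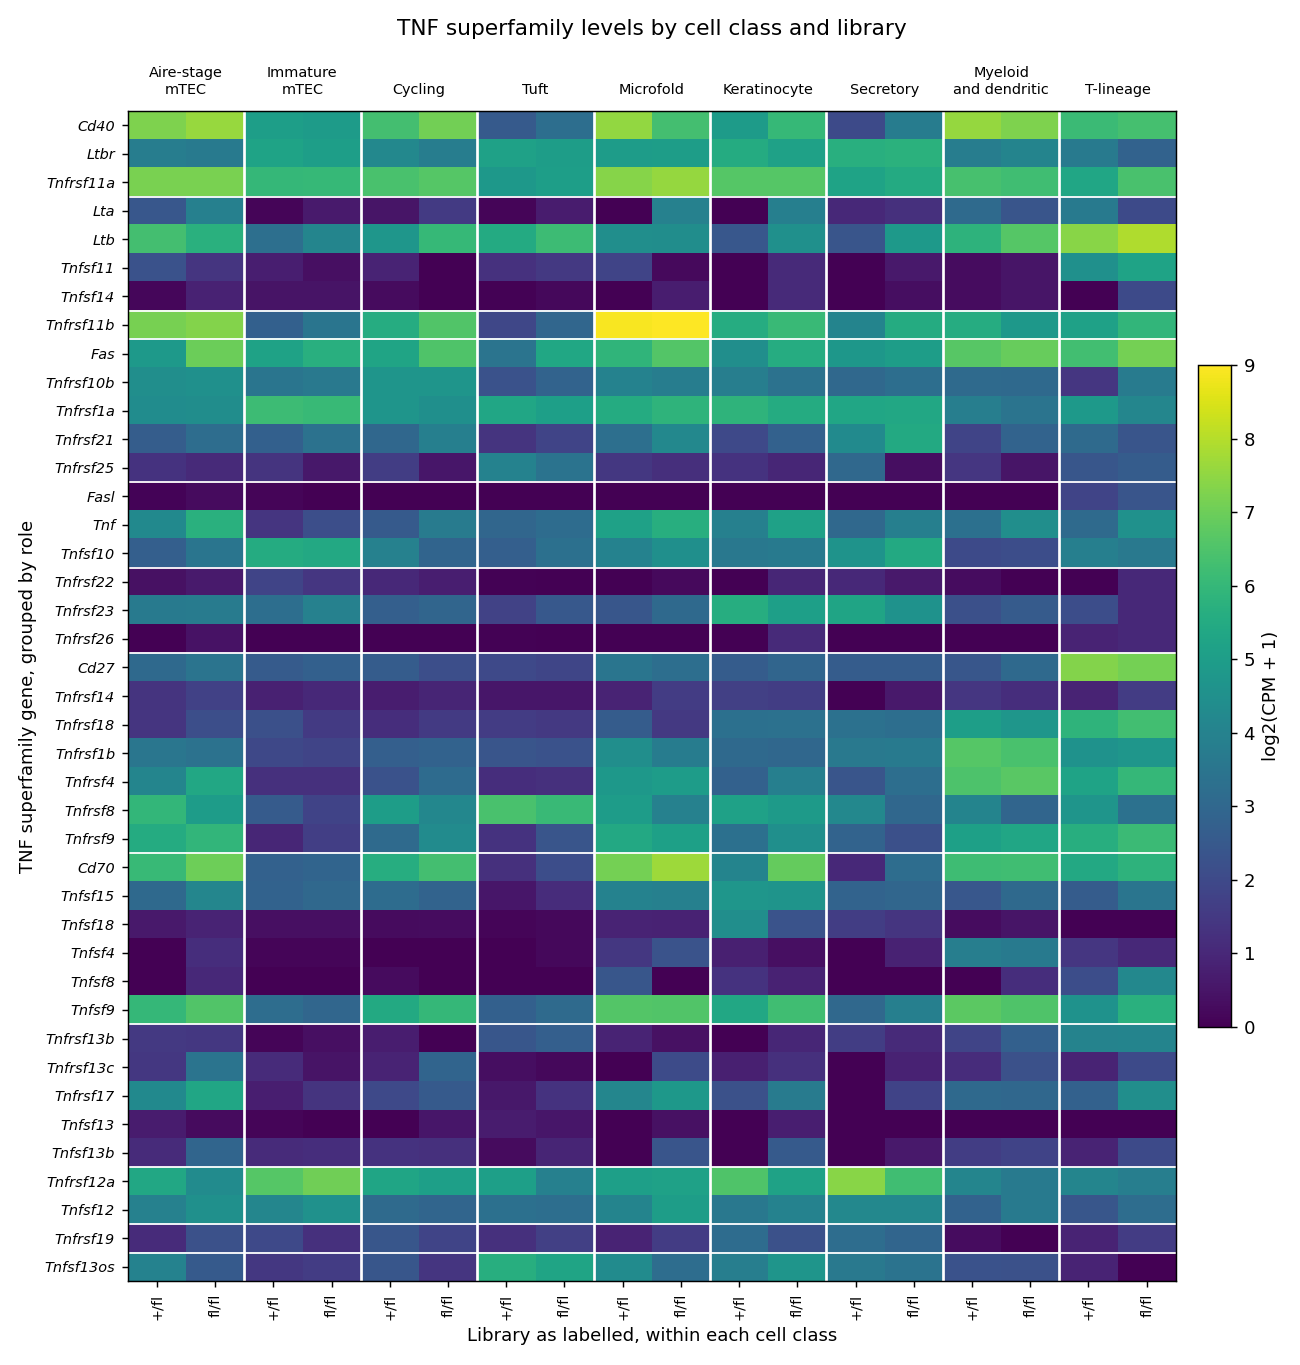
Heat map of log2(CPM + 1) for all 41 members, in rows grouped by role, in 9 cell classes, with a column for each library as labelled. Tnfrsf11b is at its highest in Microfold cells (478 and 503 CPM), Cd27 in T-lineage cells (159 and 139 CPM) and Tnfrsf8 in Tuft cells (84.4 and 68.0 CPM).

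Of the 3 receptors that drive mTEC growth, Tnfrsf11a (RANK; chromosome 1, 105780718 to 105847981, plus strand) was highest in Microfold and Aire-stage cells and lowest in Tuft cells. It measured 165 CPM (142 to 190) labelled +/fl and 190 CPM (180 to 202) labelled fl/fl in Microfold cells, and 145 and 146 CPM in Aire-stage mTECs. Keratinocyte cells had 98.8 and 98.3 CPM, Cycling cells 85.3 and 98.0 CPM, Immature mTECs 62.7 and 64.4 CPM, Secretory cells 36.3 and 44.4 CPM and Tuft cells 26.5 and 32.1 CPM. The 7 epithelial classes stood in the same order in both libraries. Keratinocyte and Cycling cells, neighbours in that order, had overlapping intervals in both. Microfold and Aire-stage cells, and Secretory and Tuft cells, had overlapping intervals in the library labelled +/fl only.

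Shares of cells gave the same picture for RANK. With every cell thinned to 2000 UMIs (this kept 4567 of 4891 and 6872 of 7669 cells), a Tnfrsf11a molecule was found in 25.0% (22.1% to 28.2%) of Aire-stage cells labelled +/fl and 23.8% (22.1% to 25.6%) labelled fl/fl. Before thinning, 70.0% and 62.3% of cells held one, with medians of 20701 and 10081.5 UMIs per cell. In T-lineage cells, which should lack RANK, the thinned shares were 5.88% and 9.76%, at unthinned medians of 6057.5 and 3862 UMIs. The shares in Tuft cells, 5.11% and 5.28%, lay at or below those of T-lineage cells. T-lineage cells also carried epithelial RNA, with Epcam at 23.4% and 39.8% of the epithelial level. Their shares are therefore no clean background, and the Tuft shares are read neither as expression nor as its absence.

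Cd40 (CD40; chromosome 2, 165055627 to 165072948, plus strand), the receptor of a ligand of activated T cells, was high in Aire-stage mTECs (152 and 194 CPM) and in Myeloid and dendritic cells (188 and 152 CPM). It was low in Tuft cells (4.79 and 8.48 CPM) and Secretory cells (3.11 and 12.6 CPM). Cycling cells had 78.5 and 133 CPM, and Immature mTECs 32.0 and 29.9 CPM. The libraries disagreed in Microfold cells, with 186 CPM (162 to 212) labelled +/fl and 77.9 CPM (71.0 to 85.3) labelled fl/fl, and the 75 cells labelled +/fl are few.

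Ltbr, which encodes the lymphotoxin beta receptor, ran the other way. It was highest in Secretory cells (50.8 and 52.7 CPM) and reached 36.3 and 32.2 CPM in Immature mTECs and 34.9 and 31.5 CPM in Tuft cells. Aire-stage mTECs had 13.1 and 11.6 CPM. The intervals of Aire-stage mTECs did not overlap those of Immature mTECs or Tuft cells in either library.

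The decoy Tnfrsf11b (OPG; chromosome 15, 54250619 to 54278484, minus strand) had its highest level in Microfold cells, at 478 CPM (439 to 519) labelled +/fl and 503 CPM (485 to 521) labelled fl/fl. Aire-stage mTECs followed, with 143 and 160 CPM. Immature mTECs had 5.70 and 10.2 CPM and Tuft cells 2.74 and 6.81 CPM. Microfold cells thus held the highest levels of both RANK and the decoy of its ligand among the 9 classes, in both libraries. Tnfrsf11b would have been among the variable genes of the clustering and was held out of it.

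**Figure D2:**
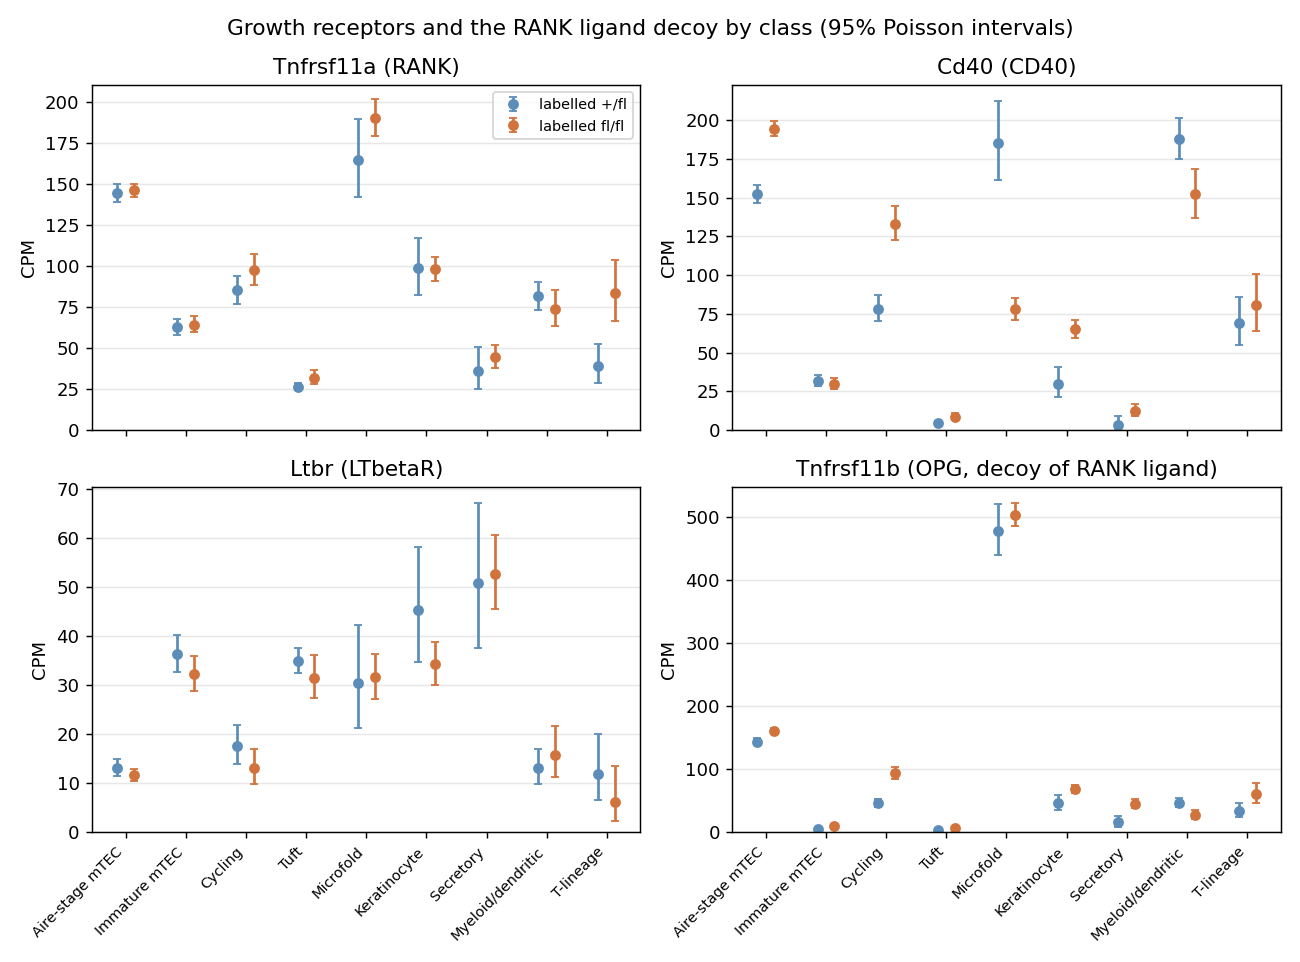
Levels in CPM of Tnfrsf11a, Cd40, Ltbr and Tnfrsf11b in 9 cell classes, with 1 point per library as labelled and bars for 95% Poisson intervals of the count. RANK in Aire-stage mTECs is level between libraries (145 and 146 CPM), Ltbr is lower there than in Immature mTECs, and Tnfrsf11b stands far above the rest in Microfold cells.

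Of the ligands of these receptors, Ltb was found in epithelial cells at levels in the range of the receptors, and the other 3 were low there. Tnfsf11, which encodes RANK ligand, was highest in T-lineage cells, at 22.2 CPM (14.5 to 32.5) labelled +/fl and 36.2 CPM (25.2 to 50.3) labelled fl/fl, and at most 3.84 CPM in the other 8 classes. Ltb, the membrane subunit of lymphotoxin, was also highest in T-lineage cells (170 and 243 CPM). It was present in Tuft cells (44.9 and 71.4 CPM), Aire-stage mTECs (78.0 and 52.0 CPM) and Myeloid and dendritic cells (55.7 and 97.8 CPM). Lta, the other lymphotoxin subunit, reached at most 14.6 CPM in these 9 classes. Tnfsf14 (LIGHT) reached at most 3.099 CPM. Cd40lg, which the rule leaves out, had 3 UMIs (2.56 CPM) and 19 UMIs (19.6 CPM) in T-lineage cells and 0 to 2 UMIs in each other class.

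Genes with profiles like these receptors were named by correlation over the 9 classes of both libraries, which gives 18 points that share libraries, depth and neighbouring cells. Among 5169 eligible genes, Tnfrsf11a was most like Exoc3l4 (Pearson r 0.934), Tmem167 (0.919) and Col17a1 (0.916). Cd40 was most like Il4i1 (0.962), Gnb4 (0.923) and H2-DMb2 (0.919). Tnfrsf11b was most like Surf4 (0.947), Pglyrp2 (0.943) and Ephx2 (0.935). These are descriptions of this set of classes.

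Class by class, members were called high where they stood at least 2-fold over the median of the other classes in each library, among the 25 members that passed the filter on low counts over these classes. A member that passed only through its high class had to stand out, so the counts are descriptions. In Aire-stage mTECs 8 of the 25 were high, against a background of 7.92% of the 11478 genes that passed: Cd40, Tnfrsf8, Tnfrsf9, Tnfrsf4, Tnfrsf10b, Tnfrsf11b, Tnfrsf17 and Tnf. 1 was low, Ltbr, where the background was 0.967%. Tnfrsf17 encodes BCMA, a plasma cell receptor for APRIL and BAFF, and measured 18.5 and 39.5 CPM in Aire-stage mTECs and 16.5 and 27.1 CPM in Microfold cells.

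Immature mTECs had 3 high members, against a background of 7.74%, and 12 low ones, against 10.0%. The high ones were Tnfsf10 (46.0 and 42.6 CPM), which encodes the death ligand TRAIL, Tnfrsf1a (71.1 and 66.2 CPM), a TNF receptor with a death domain, and Tnfrsf12a (97.8 and 131 CPM), which encodes Fn14, the receptor of TWEAK. Tuft cells had 2 high members against 10.8%, Tnfrsf8 and Tnfsf13os, and 13 low ones against 11.0%. Low in Tuft cells were, among others, Tnfrsf11a, Cd40, Tnfrsf11b, Fas and Cd70.

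Microfold cells had 6 high members (background 7.59%), Tnfrsf11a, Tnfrsf4, Tnfrsf11b, Tnfrsf17, Tnf and Cd70, and 0 low ones (3.42%). Secretory cells had 4 high (8.62%), Ltbr, Tnfrsf23, Tnfrsf12a and Tnfrsf21, and 8 low (4.81%). Tnfrsf23 encodes a mouse decoy for TRAIL and Tnfrsf21 encodes the death receptor DR6. Keratinocyte cells had 2 high (8.59%), Tnfrsf23 (48.3 and 33.1 CPM) and Tnfsf15 (25.3 and 24.3 CPM), which encodes a ligand of the receptor DR3, and 1 low, Ltb (0.871%). Cycling cells had 1 high, Tnfrsf10b (24.6 and 25.1 CPM; background 6.81%), the TRAIL receptor with a death domain, and 3 low (4.64%).

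In leukocytes the high members were mostly costimulatory receptors. T-lineage cells had 6 high members (background 6.06%), Tnfrsf1b, Tnfrsf9, Tnfrsf4, Tnfrsf18, Cd27 and Ltb, and 3 low ones (4.41%). Myeloid and dendritic cells had 5 high (4.84%), Cd40, Tnfrsf1b, Tnfrsf4, Tnfrsf18 and Ltb, and 3 low (7.68%). Cd27, the receptor of CD70 on T cells, had 159 CPM (137 to 184) and 139 CPM (117 to 165) in T-lineage cells and at most 10.4 CPM in the other 8 classes. Tnfrsf18, which encodes GITR, had 57.1 and 76.4 CPM in T-lineage cells and 32.2 and 25.8 CPM in Myeloid and dendritic cells. Tnfrsf1b, which encodes the TNF receptor of leukocytes, had 98.9 and 83.6 CPM in Myeloid and dendritic cells.

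Epithelial RNA in these leukocytes was measured through Epcam. Myeloid and dendritic cells held 29.97% and 22.7% of the epithelial Epcam level, and T-lineage cells 23.4% and 39.8%. If a member came with Epcam alone, its level would be that share of its epithelial level. Krt8, an epithelial keratin, stood at 0.929 to 1.39 times this level in both classes and libraries, and Aire at 2.15 to 2.86 times. Tnfrsf11a stood at 3.45 and 2.94 times in Myeloid and dendritic cells and at 2.12 and 1.90 times in T-lineage cells. Tnfrsf12a stood at 0.809 to 1.34 times and Tnfrsf8 at 0.912 to 1.97 times. Cd27 in T-lineage cells stood at 131 and 46.3 times, Tnfsf11 at 48.9 and 86.7 times, and Tnfrsf18 at 98.9 and 52.4 times. In Myeloid and dendritic cells Tnfrsf1b stood at 50.5 and 47.3 times, Tnfrsf4, which encodes OX40, at 44.0 and 19.1 times, and Cd40 at 9.54 and 5.96 times.

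Of the costimulatory ligands, Tnfsf9 and Cd70 were found in both epithelial and dendritic cells. Tnfsf9, the ligand of CD137, had 62.7 and 92.4 CPM in Aire-stage mTECs, 94.5 and 93.2 CPM in Microfold cells and 104 and 91.9 CPM in Myeloid and dendritic cells. Tuft cells had 5.83 and 7.72 CPM. Cd70, the ligand of CD27, had 140 and 206 CPM in Microfold cells, 65.9 and 128 CPM in Aire-stage mTECs and 1.396 and 3.33 CPM in Tuft cells. Myeloid and dendritic cells had 73.0 and 75.3 CPM of it. T-lineage cells, the class with the most Cd27, had 41.8 and 55.8 CPM of Cd70, at 6.12 and 1.54 times the level carried with Epcam. Keratinocyte cells differed between libraries, with 15.6 and 117 CPM. Tnfsf4, the ligand of OX40, had 13.5 and 12.1 CPM in Myeloid and dendritic cells and at most 3.99 CPM elsewhere.

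Of the 41 members, 29 passed the filter of a mean of 5 CPM and 20 UMIs in at least 1 of the 5 classes that reached 100 cells in each library. The other 12 were Fasl, Tnfrsf13b, Tnfrsf14, Tnfrsf19, Tnfrsf22, Tnfrsf26, Tnfsf11, Tnfsf13, Tnfsf13b, Tnfsf14, Tnfsf18 and Tnfsf8. All 41 had at least 1 UMI in each library. In T-lineage cells Tnfrsf13b, which encodes TACI, had 15.3 and 15.5 CPM. Tnfsf8, the ligand of CD30, had 3.41 CPM (0.929 to 8.73) labelled +/fl and 17.6 CPM (10.2 to 28.1) labelled fl/fl there. Fasl had 2.56 and 4.13 CPM in the same class, from 3 and 4 UMIs. Tnfsf18 had 20.8 and 3.89 CPM in Keratinocyte cells, from 28 UMIs in each library. Tnfrsf14, Tnfrsf19, Tnfrsf22, Tnfrsf26, Tnfsf13 and Tnfsf13b stayed at or under 8.29 CPM in each of the 9 classes.

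Between the libraries, over all kept cells, 26 members passed the filter. 14 were at least 1.5-fold higher in the library labelled fl/fl, where 12.4% of all 11599 genes tested were, and 2 were lower, where 8.15% were. The median log2 ratio, fl/fl over +/fl with 1 CPM added to both, was 0.64 for the members and −0.05 for all genes. This sum mixes classes whose shares differ between libraries: Aire-stage mTECs made up 18.8% and 35.0% of kept cells (+/fl first), and Tuft cells 38.2% and 10.7%. Tnfrsf11a had 75.9 and 109 CPM over all kept cells, and within 5 classes its log2 ratio lay between −0.14 and 0.27. Averaged over the 12 clusters with at least 30 cells in both libraries, each with equal weight, the members' median was 0.09, and 3 members were higher and 1 lower by 1.5-fold. The share over all genes under this weighting is not given, so these counts have no background beside them.

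**Figure D3:**
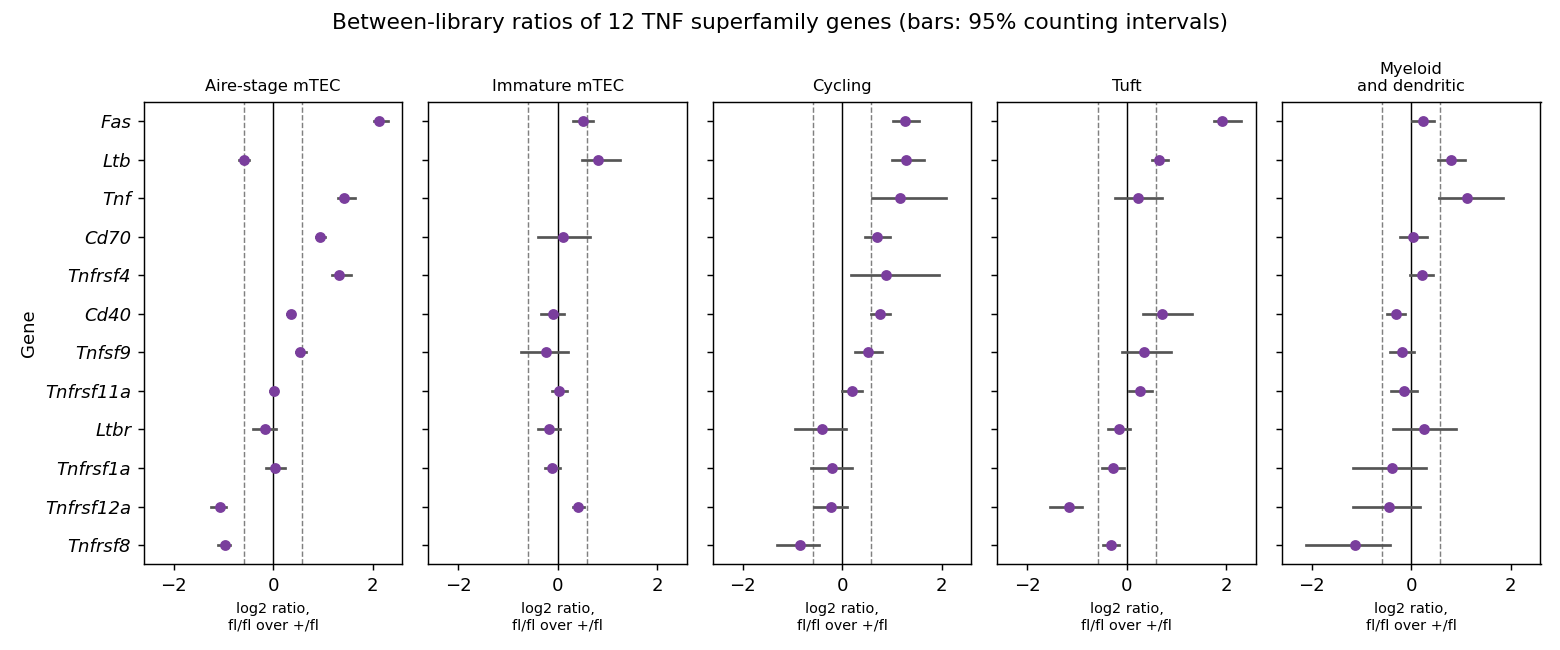
Points give the log2 ratio (library labelled fl/fl over library labelled +/fl, 1 CPM added) of 12 members in 5 classes, grey bars the 95% counting intervals, and dashed lines 1.5-fold; a gene below the filter in a class has no point. Fas lies to the right of 0 in all 5 classes, Tnfrsf8 to the left in the 4 where it passed, and Tnfrsf11a near 0.

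Within classes the counts stood against their backgrounds as follows. In Aire-stage mTECs 9 of 26 members were higher (background 16.3%) and 3 lower (10.3%), with a median of 0.39 against −0.02 for all genes. In Immature mTECs 4 of 17 were higher (3.28%) and 0 lower (2.18%), with a median of 0.19 against 0.03. In Cycling cells 9 of 21 were higher (6.40%) and 2 lower (6.92%), with a median of 0.24 against −0.02. Markers of other classes shifted in Cycling cells too. The 9 of Immature mTECs summed to 5348 and 3261 CPM, 9 of them lower labelled fl/fl. The 9 of Aire-stage mTECs summed to 1118 and 1485 CPM, 8 of them higher. The part of this shift in the Cycling differences was not tested. In Tuft cells 3 of 15 were higher (7.91%) and 1 lower (5.78%), with a median of 0.22 against 0.02. Among 23 members tested in Myeloid and dendritic cells 5 were higher (9.20%) and 3 lower (7.60%), with a median of −0.05 against 0.03. The share of members past 1.5-fold upward was above the background in each of the 5 classes. The share past 1.5-fold downward was also above its background in each class except Immature mTECs. The median was above that of all genes in the 4 epithelial classes. With equal weight of the clusters shared by both libraries, the Aire-stage class had 3 members higher (Tnfsf10, Tnfsf12 and Fas) and 6 lower (Tnfrsf1a, Tnfrsf1b, Tnfrsf8, Tnfrsf9, Tnfrsf11b and Tnfrsf23), with a median of −0.10. With TMM scaling the Tuft count was 2 higher and 2 lower, with doublets kept 7 and 2, and by the mean of per-cell CPM 5 and 2. In Myeloid and dendritic cells the mean of per-cell CPM gave 4 higher and 1 lower and a stricter cell filter 3 and 6. Shares over all genes are not given for equal weights or these other settings, so their counts have no background.

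Fas (chromosome 19, 34290666 to 34327772, plus strand), the death receptor of Fas ligand, was higher in the library labelled fl/fl in all 5 classes. Aire-stage mTECs had 27.6 CPM (25.2 to 30.1) labelled +/fl and 124 CPM (120 to 128) labelled fl/fl, a log2 ratio of 2.13 (2.03 to 2.30, an exact binomial interval of the 2 counts with no CPM added). Tuft cells had 9.92 CPM (8.59 to 11.4) and 40.3 CPM (35.6 to 45.4), a log2 ratio of 1.92 (1.75 to 2.29). Cycling cells had 37.6 and 91.5 CPM (log2 ratio 1.26), Immature mTECs 35.2 and 50.3 CPM (0.50), and Myeloid and dendritic cells 101 and 120 CPM (0.24). In these 5 classes no interval of the ratio reached 0, and in the first 3 the ratio was past 1.5-fold. Markers of Aire-stage mTECs moved with Fas in Tuft cells: the 9 on the list summed to 163 and 293 CPM, 8 of them higher labelled fl/fl, and their part in the Tuft difference was not tested. The Myeloid and dendritic class, whose cells are outside the Foxn1 lineage, had the same direction at a smaller size. T-lineage cells had 75.9 CPM (60.9 to 93.4) and 139 CPM (117 to 165). Both classes carry epithelial RNA, and the Fas carried with Epcam would also be higher labelled fl/fl. It would be 7.17 and 19.7 CPM in Myeloid and dendritic cells and 5.61 and 34.4 CPM in T-lineage cells. The part of epithelial RNA in these 2 differences was not tested. The sign of the Fas ratio held in all alternatives of cell filter, clustering and scaling, with log2 ratios of 0.72 to 2.21 in Aire-stage mTECs and 1.60 to 2.01 in Tuft cells.

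The lowest value in Aire-stage mTECs is the one with equal weight of clusters, since the libraries fill this class from different clusters. Its cells labelled +/fl lay mostly in cluster 3 (854 cells, against 40 labelled fl/fl), and its cells labelled fl/fl in clusters 9 (53 and 1265 cells) and 14 (12 and 1379 cells). Fas had 25.4 and 62.3 CPM in cluster 3, 81.8 and 115 CPM in cluster 9 and 117 and 129 CPM in cluster 14. Given equal weight, clusters 3 and 9 left a log2 ratio of 0.72, still past 1.5-fold. In the Tuft clusters Fas had 7.91 and 20.1 CPM (cluster 5) and 12.3 and 45.9 CPM (cluster 6), and intervals did not overlap in either. Thinned to 2000 UMIs, Fas was found in 4.93% (3.55% to 6.66%) and 20.02% (18.4% to 21.7%) of Aire-stage cells and in 1.55% and 6.74% of Tuft cells. Unthinned, the shares were 29.3% and 50.8% in Aire-stage cells and 9.003% and 22.4% in Tuft cells. Fas is widely expressed, so no class was taken to lack it.

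Tnfrsf8, which encodes CD30, a receptor of activated lymphocytes, passed the filter in 4 classes and was at a lower level labelled fl/fl in each. Tuft cells, its highest class, had 84.4 CPM (80.4 to 88.5) and 68.0 CPM (61.8 to 74.5), a log2 ratio of −0.31 that is short of 1.5-fold. Aire-stage mTECs had 60.7 and 30.7 CPM (−0.96), Cycling cells 31.2 and 16.9 CPM (−0.84), and Myeloid and dendritic cells 15.6 and 6.66 CPM (−1.12). In each of the 4 classes the interval of the ratio stayed below 0. Tuft markers moved with Tnfrsf8 outside Tuft cells. The 12 on the list summed to 448 and 146 CPM in Aire-stage mTECs (12 lower labelled fl/fl), 264 and 94.5 CPM in Cycling cells (10 lower) and 336 and 218 CPM in Myeloid and dendritic cells (10 lower). None of the 12 was at 0, and Trpm5, a Tuft cell channel, had 48.4 and 12.5 CPM in Aire-stage mTECs. In Tuft cells the list summed to 7308 and 7766 CPM, with 6 higher and 6 lower. The part of Tuft RNA in the differences of Tnfrsf8, and of Tnfsf13os, which is also high in Tuft cells, was not tested. By cluster the Aire-stage difference was uneven: Tnfrsf8 had 60.6 and 7.33 CPM in cluster 3 (4 UMIs in the 40 cells labelled fl/fl), 48.5 and 42.2 CPM with overlapping intervals in cluster 9, and 81.3 and 25.7 CPM in cluster 14. In Myeloid and dendritic cells its level was near that carried with Epcam, at 0.973 and 1.14 times.

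Tnfrsf12a (Fn14; chromosome 17, 23675445 to 23677468, minus strand) was at a lower level labelled fl/fl in Tuft cells, with 32.8 and 14.2 CPM (log2 ratio −1.15), and in Aire-stage mTECs, with 40.9 and 19.1 CPM (−1.06). In Immature mTECs it was higher, with 97.8 and 131 CPM (0.42, short of 1.5-fold). Both Tuft clusters showed the difference, with 33.3 and 9.71 CPM in cluster 5 and 32.1 and 15.5 CPM in cluster 6. With equal weight of clusters 3 and 9 the Aire-stage log2 ratio was −0.50, short of 1.5-fold. Immature mTECs and Secretory cells are high in Tnfrsf12a, and markers of both shifted in Aire-stage mTECs. The 9 of Immature mTECs summed to 2262 and 1283 CPM, with 3 higher and 6 lower labelled fl/fl. The 10 of Secretory cells summed to 2467 and 1174 CPM, with 9 higher and 1 lower. Their part in the Tnfrsf12a difference was not tested. Its ligand Tnfsf12 (TWEAK) had 9.07 and 8.63 CPM in Tuft cells and 16.3 and 22.3 CPM in Immature mTECs. Tnfsf12 and Tnfsf13 overlap the readthrough gene Tnfsfm13 on the same strand in GENCODE M21, and the antisense Tnfsf13os on the other. Their counts are therefore uncertain.

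Ltb was past 1.5-fold higher in the library labelled fl/fl in Cycling cells (25.7 and 64.3 CPM, log2 ratio 1.29), Immature mTECs (8.79 and 16.1 CPM, 0.80), Myeloid and dendritic cells (55.7 and 97.8 CPM, 0.80) and Tuft cells (44.9 and 71.4 CPM, 0.66). In Aire-stage mTECs it had 78.0 and 52.0 CPM (−0.58, just short of 1.5-fold). There it had 79.7 and 58.7 CPM in cluster 3, with overlapping intervals, and 24.2 and 43.7 CPM in cluster 9. With equal weight the log2 ratio was −0.02.

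Several members past 1.5-fold in the Aire-stage class were not past it when its shared clusters were weighted equally. Cd70 had 65.9 and 128 CPM in the class (log2 ratio 0.95), yet 64.5 and 62.3 CPM in cluster 3 and 176 and 203 CPM in cluster 9. In cluster 14, which has 12 cells labelled +/fl, it had 18.1 CPM (4 UMIs) and 93.7 CPM. Tnf had 18.4 and 51.0 CPM in the class (1.42), and 16.6 and 29.3 CPM in cluster 3, with overlapping intervals, and 109 and 67.9 CPM in cluster 9, with intervals apart. Tnfrsf4 had 16.0 and 41.5 CPM (1.32) and Tnfrsf17 18.5 and 39.5 CPM (1.06). With clusters 3 and 9 weighted equally, the log2 ratios were 0.14 for Cd70, −0.36 for Tnf, −0.13 for Tnfrsf4 and 0.15 for Tnfrsf17. The same weighting took Tnfsf15 from 1.06 to −0.0003, Tnfrsf13c, which encodes the BAFF receptor, from 2.02 to −0.16 and Tnfsf13os from −1.41 to 0.13. It rests on 40 cells labelled fl/fl in cluster 3 and 53 labelled +/fl in cluster 9.

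**Figure D4:**
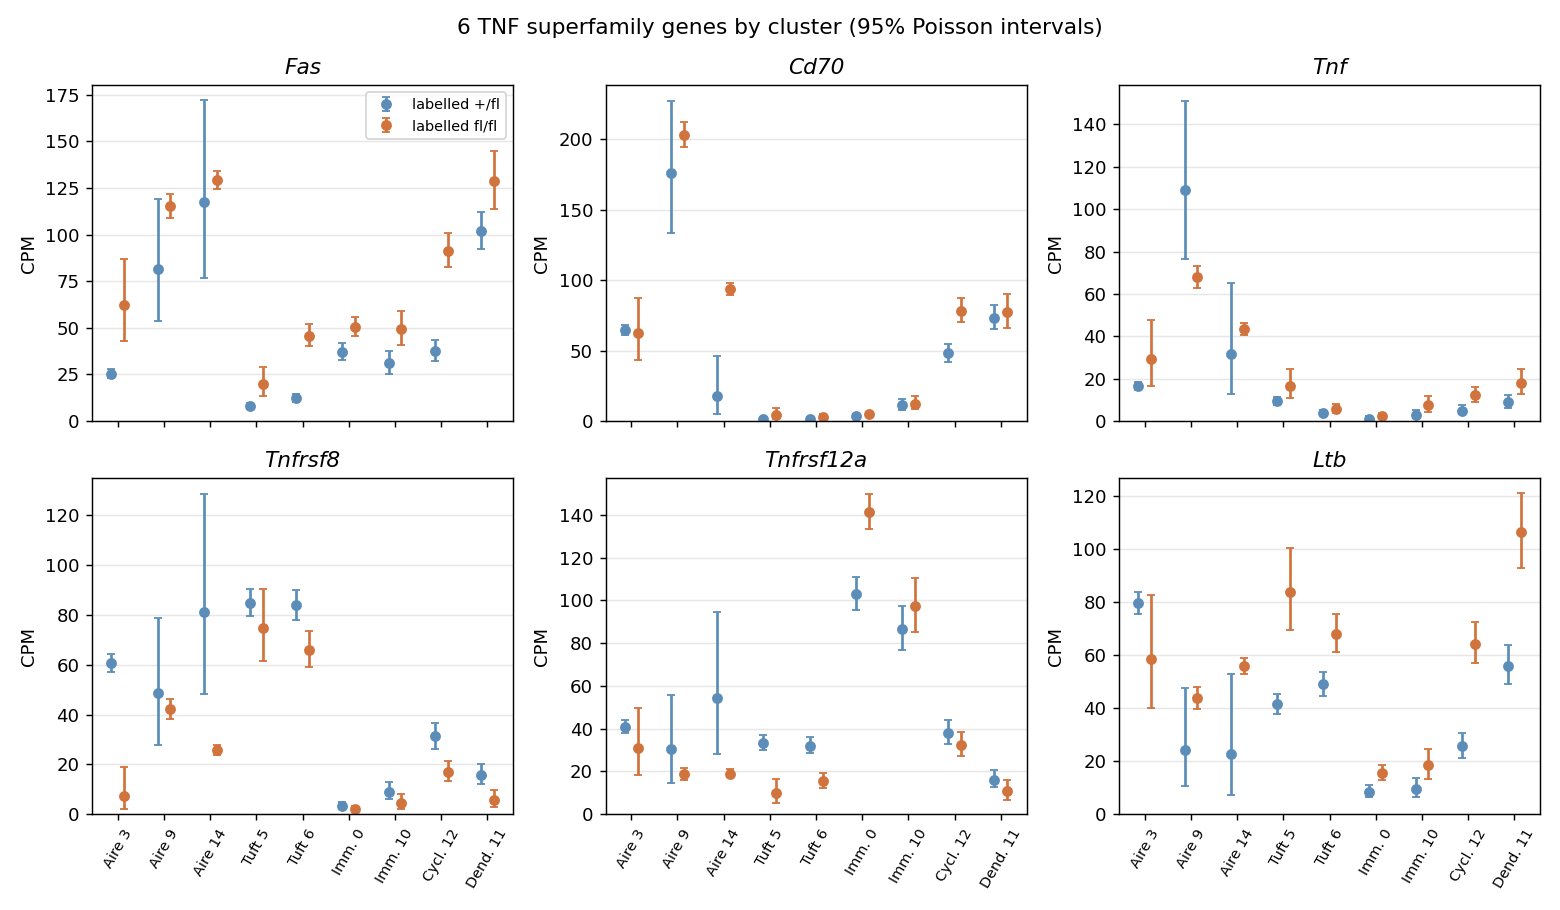
Levels in CPM of 6 members in 9 clusters (Aire, Aire-stage mTEC; Imm., Immature mTEC; Cycl., Cycling; Dend., dendritic), with 1 point per library as labelled and bars for 95% Poisson intervals. Fas is higher in the library labelled fl/fl in Tuft clusters 5 and 6, while Cd70 is level between libraries within Aire clusters 3 (64.5 and 62.3 CPM) and 9 but not in Aire cluster 14 (18.1 and 93.7 CPM).

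Cd40 was past 1.5-fold higher in the library labelled fl/fl in Cycling cells (log2 ratio 0.76) and in Tuft cells (0.71), where it was low. It was 0.35 in Aire-stage mTECs, −0.10 in Immature mTECs and −0.30 in Myeloid and dendritic cells. Markers of Aire-stage mTECs, a class high in Cd40, moved the same way in Tuft cells (163 and 293 CPM summed) and Cycling cells (1118 and 1485 CPM). Their part in the Cd40 differences was not tested. Tnfrsf11b was higher in Cycling cells (46.4 and 93.1 CPM, 0.99) and Immature mTECs (0.75) and 0.16 in Aire-stage mTECs, where equal weight of clusters gave −0.81. Tnfrsf9, which encodes CD137, had 7.70 and 19.3 CPM in Cycling cells (1.22) and 45.2 and 59.9 CPM in Aire-stage mTECs (0.40), and −0.72 there with equal weight. Tnfrsf21 was higher in Cycling cells (0.87) and Immature mTECs (0.64), and Tnfrsf23 in Immature mTECs (0.71). Tnf was also higher in Cycling cells (1.17), as were Tnfrsf4 (0.88) and Cd70 (0.69). In Myeloid and dendritic cells Tnf was higher too, with 9.01 and 20.8 CPM (1.12). The Tnf carried with Epcam there would also be higher labelled fl/fl, at 3.01 and 7.46 CPM. Tnf stood at 2.998 and 2.79 times that level, and the part of epithelial RNA in its difference was not tested. Tnfsf10 was higher in Aire-stage mTECs (0.77) and lower in Cycling cells (−1.05).

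The other receptors lay as follows. Ltbr was between −0.40 and 0.26 over the 5 classes, Tnfrsf1a between −0.38 and 0.04 and Tnfrsf10b between −0.02 and 0.57, none past 1.5-fold. In Aire-stage mTECs equal weight of clusters gave −0.88 for Tnfrsf1a, −1.47 for Tnfrsf1b and −1.99 for Tnfrsf23, which had 0.04, −0.16 and 0.07 in the class. Tnfsf9 lay between −0.23 and 0.55. In Myeloid and dendritic cells Cd27 (0.69), Tnfsf15 (0.62) and Lta (−0.73) passed 1.5-fold with intervals that include 0, and Tnfsf12 (0.82) with an interval above 0. Tnfrsf25, the death receptor DR3, was tested in Tuft cells alone, with 14.8 and 9.84 CPM (−0.54), and Tnfsf13os, with 49.1 and 37.5 CPM there, had −0.38. Tnfrsf18 and Tnfsf4 were tested in Myeloid and dendritic cells alone and did not pass 1.5-fold.

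Fixed lists of 14 adaptors and 14 NF-kB genes, which lie downstream of the receptors, were read beside the members. In Aire-stage mTECs 4 of 14 NF-kB genes were past 1.5-fold higher in the library labelled fl/fl and 0 lower, against 16.3% and 10.3% of all genes, with a median of 0.25. These were Rel (42.1 and 111 CPM), Map3k14, which encodes the NF-kB inducing kinase (17.7 and 40.1 CPM), Nfkb1 (65.9 and 128 CPM) and Nfkbia, an inhibitor of NF-kB (1617 and 2509 CPM). Of the adaptors 1 of 14 was, a smaller share than over all genes: Traf1, with 35.0 and 157 CPM (log2 ratio 2.13). Within clusters Traf1 had 32.9 and 73.3 CPM in cluster 3 and 164 and 223 CPM in cluster 9, and Rel had 40.5 and 67.8 CPM and 124 and 136 CPM. Myeloid and dendritic cells are high in Traf1 (547 and 594 CPM) and Rel (393 and 410 CPM). The 13 markers of that class summed to 15161 and 20203 CPM in Aire-stage mTECs, with 12 higher and 1 lower labelled fl/fl. Their part in the Traf1 and Rel differences was not tested. In Tuft cells Traf1 had 11.8 and 22.7 CPM (0.89), and 2 of 13 adaptors were higher, Traf1 and Traf5, and 1 lower, Ripk1 (85.0 and 52.8 CPM, −0.68). Rel (49.9 and 78.2 CPM) and Nfkb2 (26.3 and 40.6 CPM) were the 2 of 14 NF-kB genes higher there, where 7.91% of all genes were higher and 5.78% lower. In Immature mTECs Traf1 (0.88) and Map3k14 (0.62) were higher, in Cycling cells 0 genes of either list passed 1.5-fold, and in Myeloid and dendritic cells 1 did, Fadd, which was lower (−0.74).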

How the data were processed

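The deposited matrices hold unnormalized UMI counts, 1 value for each gene in each barcode. Per the submitters' processing notes the tools were Cell Ranger and Seurat, with no version; the matrix headers give software version 3.1.0. For the genome build, the annotation and the strand setting, the answer is not given in the sources used here. Positions were looked up by Ensembl identifier in GENCODE M21, and 16 members overlap another gene there, 13 of them on the other strand. Only if the counting ignored strand would molecules of these 13 be mixed with those of the gene on the other strand.

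Barcodes numbered 7304 (85260592 UMIs) labelled +/fl and 11095 (99871505 UMIs) labelled fl/fl, of which 25 were in both. Cells with at least 500 genes, 1000 UMIs and at most 15% mitochondrial UMIs passed (69.8% and 74.0%). Scrublet in scanpy 1.11.5 marked 0.0196% and 0%, so the 208 and 539 highest doublet scores were removed at 0.8% per 1000 cells. Both libraries were clustered together (2000 variable genes without the members and the pathway lists, 30 components, 15 neighbours, Leiden resolution 1), which gave 21 clusters.

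Clusters were named from 21 marker lists: at least 3 markers in 10% of cells and at 2-fold, and no more markers of another list among the 10 leading genes. The score, mean log2 fold times the share of the list met, and the limit on non-epithelial names (Epcam under 50% of the cluster median) were set after clusters were seen; 2 clusters stayed unnamed, 1 of them through that limit. Rebuilt names mean resemblance only.

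Each genotype has 1 library, so nothing was tested. UMIs were summed per class and library and divided by the total (CPM, not per length) with exact Poisson intervals; shares carry Clopper-Pearson intervals. Self-tests on simulated counts were run. Members and lists were chosen with earlier results of these data known. By the naming rule every member may be named, with values where it passed 5 CPM and 20 UMIs in a class, together with the pathway lists and the 3 genes most like RANK, CD40 and OPG; values of members under that filter were chosen after they were seen. TMM factors came from edgeR 4.0.16 in R 4.3.3. Alternatives changed the cell and low-count filters, doublets, clustering, scaling, pseudocount, fold and thinning.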

Additional observations from a re-analysis of the deposited data

Results flagged for a closer look

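For 3 members the log2 ratio between the libraries (labelled fl/fl over labelled +/fl) had opposite signs past 1.5-fold in different classes. None of these differences between classes was tested, since each class has 1 library per genotype. Lta was at 1.46 in Aire-stage mTECs (4.45 and 14.02 CPM) and at −0.73 in Myeloid and dendritic cells (7.59 and 4.16 CPM, with an interval that includes 0). With doublets kept the latter was 1.19. Tnfrsf11b was at 0.75 in Immature mTECs and 0.99 in Cycling cells, and at −0.76 in Myeloid and dendritic cells (46.5 and 27.0 CPM), where Epcam was also lower, at 376 and 270 CPM. The part of epithelial RNA in that value was not tested. Tnfsf10 was at 0.77 in Aire-stage mTECs (5.65 and 10.3 CPM) and at −1.05 in Cycling cells (14.5 and 6.50 CPM).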

How the results depend on the processing

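Single log2 ratios were recomputed under 1385 combinations of member, class and setting: 1207 kept their value within counting error. The sign changed in 80, and in 13 of these the value had been past 1.5-fold; those 13 follow. Fas kept its sign in each setting run, in all 5 classes. With shared clusters weighted equally, values over all kept cells were −0.039 for Tnfrsf9, −0.44 for Tnfrsf23 and −0.016 for Tnfrsf11b, and in Aire-stage mTECs −0.0003 for Tnfsf15, −0.13 for Tnfrsf4, 0.13 for Tnfsf13os, −0.16 for Tnfrsf13c and −0.36 for Tnf. With the stricter cell filter they were 0.026 for Tnfsf13os and −0.59 for Tnfrsf13c in Aire-stage mTECs and −0.19 for Tnfsf15 in Myeloid and dendritic cells. There Lta was 1.19 with doublets kept and Cd27 −0.32 by the mean of per-cell CPM.

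Members past 1.5-fold in either direction numbered 16 over all kept cells, 12 in Aire-stage mTECs, 4 in Immature mTECs, 4 in Tuft, 11 in Cycling and 8 in Myeloid and dendritic cells. With a mean of at least 50 CPM and 50 UMIs, which leaves fewer members, these became 4, 2, 0, 1, 4 and 1. With no filter the 5 classes gave 19, 12, 11, 17 and 13. At 2-fold the counts were 10 over all kept cells, 0 in Immature mTECs, 2 in Tuft, 5 in Cycling and 2 in Myeloid and dendritic cells. A pseudocount of 5 CPM gave 1 in Immature mTECs and 4 in Myeloid and dendritic cells. The mean of per-cell CPM gave 7 in Tuft and 5 in Myeloid and dendritic cells, doublets kept gave 9 in Tuft, and equal weights gave 4 over all kept cells. The median over all kept cells (0.64) was 0.50 with a pseudocount of 5 CPM, 0.45 with no filter, 1.07 at 50 CPM and 0.089 with equal weights. It was −0.10 in Aire-stage mTECs with equal weights and 0.73 in Cycling cells at 50 CPM. TMM moved all ratios by −0.10 over all kept cells and −0.12 in Aire-stage mTECs. Shares over all genes are not given for the changed settings, so these counts have no background and describe the members only.

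At 50 CPM, members high in a class numbered 2 in Aire-stage mTECs, 0 in Immature mTECs, 0 in Tuft, 2 in Myeloid and dendritic and 1 in T-lineage cells. Against the mean of the other classes, 3 were high in Aire-stage mTECs and 3 in Myeloid and dendritic cells. The latter had 9 with the stricter filter, 8 with members in the clustering and 9 at resolution 2. These counts too have no share over all genes beside them. The log2 ratio of thinned shares was −0.07 for Tnfrsf11a in Aire-stage mTECs, and 0.24 at 1000 UMIs. For Fas it was 2.02 in Aire-stage mTECs, 1.52 at 4000 UMIs and 0.80 without thinning, and 2.12 in Tuft cells and 1.31 without thinning. Clustering the libraries apart gave no Myeloid and dendritic comparison, and the stricter filter none for T-lineage cells. The causes were not tested. No paired analysis was possible because each genotype has 1 library.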

Other observations

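Classes with few cells in a library lie outside the comparisons of the text, and their values are given here as those of single libraries, with 95% Poisson intervals where few UMIs stand behind them. Tnfsf10, which encodes TRAIL, had 220 CPM in the 18 Endothelial cells labelled +/fl, with an interval of 143 to 325 CPM. The 12 Endothelial cells labelled fl/fl held 1 UMI of it, with an interval of 0.618 to 136 CPM, so the intervals do not meet. Tnfrsf12a, the TWEAK receptor, had 193 CPM in the 19 Fibroblast cells labelled +/fl (149 to 245) and 101 CPM in the 12 labelled fl/fl (60.1 to 160). Tnfrsf11b had 178 CPM (136 to 229) and 84.5 CPM (47.3 to 139) in the same cells.

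Neuroendocrine cells (27 and 245) had 18.3 and 42.3 CPM of Tnfrsf11a, with intervals that meet, and 49.6 and 30.9 CPM of Tnfrsf9. Ciliated cells (16 and 70) had 24.0 and 38.5 CPM of Tnfrsf11a, again with intervals that meet. Lta had 18.8 CPM in Ciliated cells labelled fl/fl and 0 UMIs in those labelled +/fl, where the interval reaches 9.82 CPM.

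The Myeloid and dendritic class joins cluster 11, led by Ccr7 (344 and 282 cells), and cluster 20, led by C1qa (11 and 42 cells). Tnfsf4 had 13.6 and 13.5 CPM in cluster 11. In cluster 20 it had 0 UMIs in either library, where the intervals reach 149 and 14.7 CPM, so a level like that of cluster 11 was not detectable at this depth. Tnfrsf4 had 89.0 and 114 CPM in cluster 11, and 0 UMIs and 1 UMI in cluster 20, with the interval of the latter reaching 22.3 CPM.

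The unnamed cluster 4 (23 cells labelled +/fl and 193 labelled fl/fl) had 69.4 and 112 CPM of Tnfrsf11a and 65.1 and 160 CPM of Cd40. Its Ltb level was 122 CPM in the library labelled fl/fl, against 1 UMI in the other, with an interval reaching 24.2 CPM. Fas was at 17.4 CPM there (4 UMIs, 4.73 to 44.4) and at 76.1 CPM (66.2 to 87.2) in the library labelled fl/fl. The unnamed cluster 1 (193 and 23 cells), with fibroblast markers at an epithelial Epcam level, had 226 and 51.9 CPM of Tnfrsf12a and 41.0 and 34.6 CPM of Fas.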
